A study of Homo sapiens with 16 samples.

Results

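The peaks described here are those that the deposited peak lists place on human chromosomes 13 and 18, on either strand, in the genome build hg19. A peak is a stretch of the genome where the authors' peak caller found RNA reads enriched. The peaks were chosen by chromosome from those that had been called in at least 1 list, so that they have a peak somewhere is the rule and not a finding. They number 7040 of 175749 peaks, with 3764 on chromosome 13 and 3276 on chromosome 18. Joined across lists where they overlapped by at least 1 bp on the same strand, they form 1470 of 36802 regions, 807 on chromosome 13 and 663 on chromosome 18.

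The study measured RNA bound to PABPC1 by RNA immunoprecipitation and sequencing (RIP-seq) with an anti-Myc antibody. The cells were H1299, an established human lung carcinoma line, stably expressing Myc-tagged PABPC1 as wild type (WT) or as K512R, a lysine-to-arginine change, and were either left without arsenite or given 500 µM sodium arsenite (AS). The series holds 16 samples, and 8 of them have a peak list used here, in 4 pairs of 2 lists. The cells' own PABPC1 is not described as removed, and nothing in the labels says that the 2 lists of a pair came from separate cultures, so the tests measure only the spread between these lists.

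For 6 of the 8 lists the condition in the sample record is not the one in the list's own name, so the pairs are called B, D, A and C here. Pair B is input RNA of untreated WT cells by the record and arsenite-treated WT cells by the list name. Pair D is input RNA of arsenite-treated WT cells by the record and arsenite-treated K512R cells by the list name. Pair A is immunoprecipitated RNA of WT cells by the record and untreated WT cells by the list name. Pair C is immunoprecipitated RNA of arsenite-treated WT cells by the record and untreated K512R cells by the list name. B and D against A and C is therefore arsenite against no arsenite by the list names and input against immunoprecipitated RNA by the record. C and D against A and B is K512R against WT by the list names and arsenite against no arsenite by the record. The sets of lists are the same under either reading, while what a difference between them stands for is not.

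PABPC1 is the main cytoplasmic poly(A)-binding protein. It coats the tails of mRNAs, takes part in their translation and decay, and gathers with stalled mRNAs in stress granules, cytoplasmic bodies that arsenite induces. Chromosome 13 is acrocentric, with a short arm of ribosomal RNA gene arrays, and chromosome 18 is known for its place near the nuclear edge in several cell types. On both, genes lie in clusters between long stretches with few genes.

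The label of these chromosomes as gene-poor held in the gene table used (RefSeq, assembly GRCh38.p14). Chromosome 13 had 338 protein-coding genes, or 2.93 per Mb, the lowest of the 22 autosomes. Chromosome 18 had 270, or 3.46 per Mb, the next lowest. Chromosome 13 also had the fewest regions for its full length, 7.01 per Mb, with chromosome 4 next at 7.10, and chromosome 18 had 8.49 per Mb. Both densities, of genes and of regions, use full hg19 lengths. For chromosome 13 that includes the part before its first region at position 20207788. Parts without known sequence were not taken out, and whether the ranks hold without them was not tested. Per protein-coding gene the order turned round, since chromosome 18 had 2.46 regions and chromosome 13 had 2.39, the highest values of the 22 autosomes. Because that table is of another build than the peaks, no gene is given for a peak here, and regions are named by hg19 coordinates, counted from 1.

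The regions left long stretches of both chromosomes empty. No region of chromosome 13 began before position 20207788. Between regions, the longest stretch on chromosome 13 was chr13:61084890-72049272, which is 10.96 Mb without a peak in any list. On chromosome 18 the longest between regions was chr18:14132490-18964166, which is 4.83 Mb. The next was chr18:34740257-39535162, which is 4.79 Mb. Parts of the build without known sequence, where no peak can be called, were not set apart from these stretches. Where regions did occur they were close together: 62.4% of the gaps between neighbouring regions of a strand on chromosome 13 and 61.9% on chromosome 18 were under 20 kb, against 64.5% on the other autosomes. Of the regions on chromosome 13, 45.8% lay on the plus strand, against 52.5% on chromosome 18 and 51.9% on the other autosomes.

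Whole lists held 19953 to 21160 peaks in B and D and 21979 to 25111 peaks in A and C. The lists carry no read counts, so the depth of each library is unknown, and list length may follow depth. Presence of a peak is therefore given beside each chromosome's share of its own list.

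The first comparison asked whether the 2 chromosomes took a different part of the lists with arsenite in their name. Chromosome 13 held more of the peaks in B and D than in A and C, and chromosome 18 did not. Chromosome 13 had 474 and 473 peaks in B and 483 and 493 in D, against 431 and 426 in A and 474 and 510 in C. As a share of a list's autosomal peaks, this was 2.43% and 2.33% in B and 2.52% and 2.45% in D, against 2.03% and 1.99% in A and 2.03% and 2.10% in C. Each list of B and D lay above each list of A and C. The means were 2.43% ± 0.0777 in B and D and 2.04% ± 0.0448 in A and C (SD, n = 4 lists each), a difference of 0.395 percentage points. The exact 2-sided permutation test gave p = 0.0286, the smallest that 4 lists against 4 can give, and 0.0667 after Benjamini-Hochberg adjustment over the 28 tests made, so the difference did not pass 0.05 after adjustment.

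Chromosome 18 had 367 and 390 peaks in B and 375 and 383 in D, against 419 and 417 in A and 455 and 470 in C. Its number of peaks was lower in each list of B and D than in any of A and C. Its share of the autosomal peaks differed little, at 1.88% and 1.92% in B and 1.95% and 1.901% in D, against 1.97% and 1.95% in A and 1.95% and 1.94% in C, and the groups overlapped. The mean shares were 1.91% ± 0.0306 in B and D and 1.95% ± 0.0147 in A and C (SD, n = 4 lists each), with p = 0.114 and an adjusted p of 0.213 in the exact permutation test. The difference of -0.036 percentage points became -0.0475 with lists cut to equal length and -0.141 with only the better-scoring 50% of each list, and there the groups did not overlap (exact permutation p = 0.0286 for each, unadjusted). There were 1.27 ± 0.0381 peaks on chromosome 13 for each peak on chromosome 18 in B and D, and 1.04 ± 0.0285 in A and C (SD, n = 4), which did not overlap (exact permutation p = 0.0286, adjusted p = 0.0667). This ratio was chosen after the data were seen. Both chromosomes together held 4.35% ± 0.0934 of the autosomal peaks in B and D and 3.99% ± 0.0379 in A and C (SD, n = 4; exact permutation p = 0.0286, adjusted p = 0.0667). With only the better-scoring 50% of each list that difference was 0.124 percentage points in place of 0.359 (exact permutation p = 0.171, unadjusted).

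**Figure D1:**
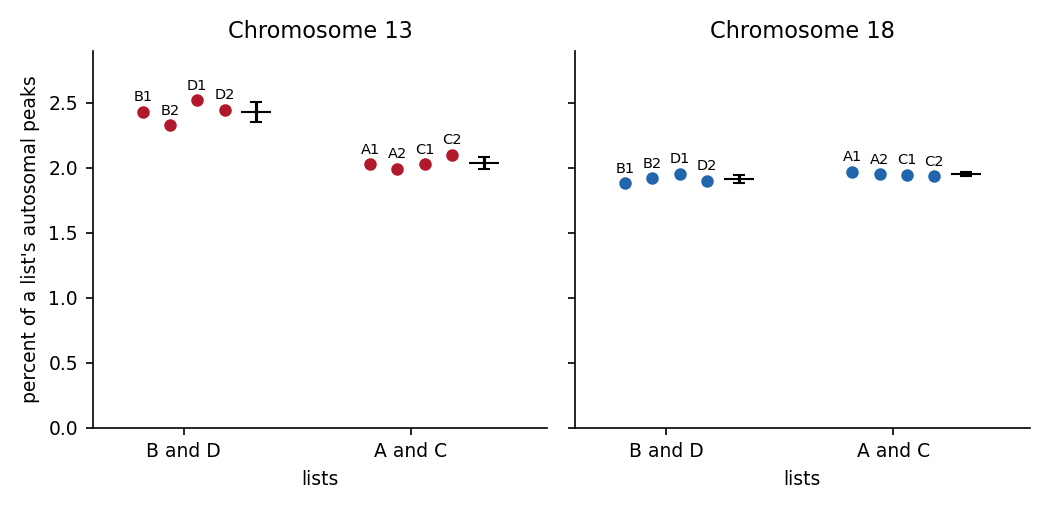
Percent of each list's autosomal peaks that lay on chromosome 13 (left) and chromosome 18 (right), with 1 dot per list and the mean and SD of each group of 4 lists beside it. On chromosome 13 the lists of B and D lie between 2.33% and 2.52% and those of A and C between 1.99% and 2.10%, while on chromosome 18 all 8 lists lie between 1.88% and 1.97%.

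Over the K512R contrast of the list names the 4 lists of each side overlapped in share on both chromosomes. Chromosome 13 held 2.27% ± 0.245 of the autosomal peaks in C and D and 2.20% ± 0.218 in A and B (SD, n = 4), with an exact permutation p of 0.514 and an adjusted p of 0.646. Chromosome 18 held 1.93% ± 0.0235 in C and D and 1.93% ± 0.0382 in A and B, with an exact permutation p of 0.914 and an adjusted p of 0.914. Each of these groups holds 2 lists of B or D and 2 of A or C. The spread within a group thus includes that difference, and these tests cannot show that the shares were equal. On chromosome 13 each list of D (2.52% and 2.45%) lay above each of B (2.43% and 2.33%). Each list of C (2.0271% and 2.0999%) lay narrowly above each of A (2.0267% and 1.9939%). On chromosome 18 the lists of D and B overlapped, and each list of C lay below each of A. These orders were not tested.

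Among the 22 autosomes, chromosome 13 had the highest ratio of its share in B and D to its share in A and C, 0.26 on the log2 scale. Chromosome 18 was at -0.03, and 7 autosomes were lower. The value for chromosome 13 was 0.24 for B against A and 0.27 for D against C, and for chromosome 18 it was -0.04 and -0.01. In numbers of peaks, chromosome 13 was the 1 autosome of the 22 whose mean in B and D was above that in A and C, by 4.45%. By pair, its mean was higher in B than in A (473.5 against 428.5) but not in D than in C (488 against 492). On chromosome 18 the mean in B and D differed from that in A and C by -14.0%. The 3 autosomes next in gene density differed by -5.06% (chromosome 4), -8.38% (chromosome 8) and -14.0% (chromosome 21), and chromosome 19, the most gene-rich, by -22.7%.

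Across the 22 autosomes, this ratio was lower where genes were denser, with a Pearson correlation of -0.62 and a Spearman correlation of -0.67. The 20 autosomes other than 13 and 18 gave -0.62 and -0.71. These values are a description, since the chromosomes come from the same 8 lists and their shares add up to the whole list. Chromosome 18 lay below chromosomes 4 and 8, which have more genes per Mb, and beside chromosome 21, so the pair of gene-poor chromosomes took different places in this plot. In a choice made after the data were seen, each chromosome's share was also taken among its own peaks and those of chromosomes 4, 8 and 21 alone. By that measure chromosome 13 was 2.01 percentage points higher in B and D than in A and C, and chromosome 18 differed by -1.06 points (exact permutation p = 0.0286 for each, unadjusted).

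**Figure D2:**
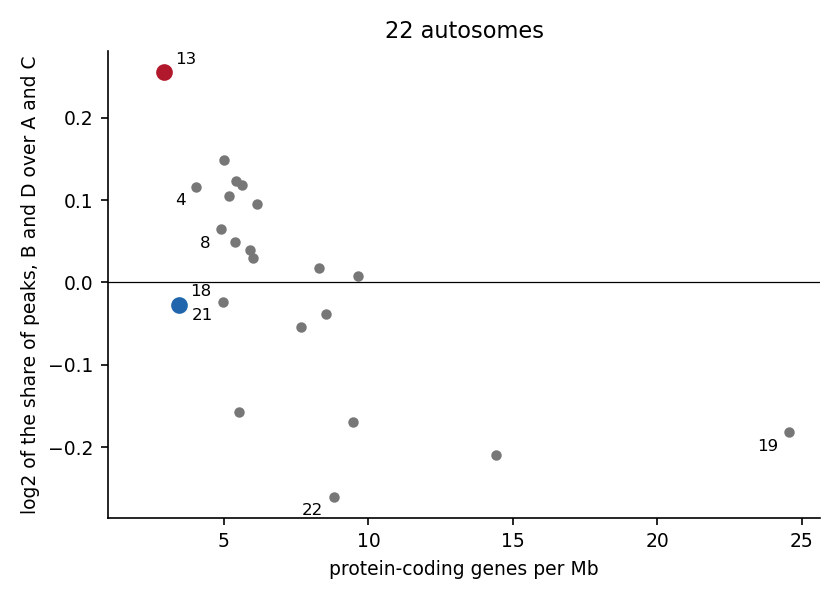
Each dot is 1 of the 22 autosomes, with protein-coding genes per Mb across and the log2 of its mean share of autosomal peaks in B and D over that in A and C upward; the line at 0 marks an equal share. Chromosome 13, at the lowest gene density, is highest at 0.26, and chromosome 18, with the next lowest density, lies at -0.03.

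Peaks on the 2 chromosomes, pooled, were narrower and ranked lower by score than those of the other autosomes pooled, in all 8 lists. Their median width was 164 and 165 bp in B and 159 and 159.5 bp in D, against 170 and 170 bp in A and 167 and 163.5 bp in C. On the other autosomes the medians ran from 184 to 197 bp. The difference within a list was -25.0 ± 3.49 bp (SD, n = 8 lists). Their mean width differed by -63.6 ± 12.4 bp (SD, n = 8). The part of them wider than 1000 bp differed by -1.56 ± 0.411 percentage points (SD, n = 8).

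The score of a peak is the authors' value with no stated unit, and it was used only to rank the peaks of 1 list. The median percentile of the peaks on chromosomes 13 and 18 was 45.4 and 44.7 in B and 45.1 and 45.4 in D, against 46.3 and 46.3 in A and 46.2 and 47.7 in C. The other autosomes had medians of 50.01 to 50.17, and the difference was -4.24 ± 0.989 points (SD, n = 8). For these 4 differences the exact sign permutation over the 8 lists gave p = 0.0078125 each, the smallest it can give, and an adjusted p of 0.0547. Low values were not found on these chromosomes alone. Over all lists, chromosome 18 had a median width of 162 bp and chromosome 13 of 167 bp, with chromosome 8 between them at 164 bp. By median percentile chromosome 13 (44.4) was above chromosome 4 (42.9), and chromosome 18 (48.4) was the ninth lowest of the autosomes. In 1 list of C the median percentile of chromosome 18 was 51.3, above the 50.1 of the other autosomes. The lists share most of their regions, so they are not 8 independent looks at these chromosomes. Peaks with a score of 3100 or more, where many are tied, made up 4.02% to 6.09% of the peaks on chromosome 13 in B and D and 3.53% to 5.40% in A and C. On chromosome 18 they made up 6.92% to 9.40% in B and D and 6.37% to 8.15% in A and C. On the other autosomes they made up 9.27% to 11.1% in B and D and 8.24% to 10.3% in A and C.

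Peaks on the 2 chromosomes were also narrower on average in B and D than in A and C. Their mean width was 290 and 290 bp in B and 280 and 276 bp in D, against 315 and 321 bp in A and 323 and 309 bp in C. The groups did not overlap, with means of 284 ± 7.11 bp in B and D and 317 ± 6.51 bp in A and C (SD, n = 4; exact permutation p = 0.0286, adjusted p = 0.0667). Peaks over 1000 bp were 4.95% ± 0.260 of those on the 2 chromosomes in B and D and 6.86% ± 0.269 in A and C, with the same p-values by exact permutation. The median percentile of the 2 chromosomes was 45.1 ± 0.325 in B and D and 46.6 ± 0.729 in A and C, again without overlap and with the same p-values by exact permutation. With lists cut to equal length its difference was -0.844 points (exact permutation p = 0.171, unadjusted). The median width overlapped between the groups (161.875 ± 3.07 bp in B and D, 167.625 ± 3.09 bp in A and C; exact permutation p = 0.0857, adjusted p = 0.185).

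The mean width on the other autosomes was 335 to 344 bp in B and D and 381 to 398 bp in A and C, so the difference of the 2 chromosomes from them was measured too. For mean width it was -55.2 ± 4.28 bp in B and D and -72.0 ± 12.4 bp in A and C, which did not overlap. For the median percentile it was -5.02 ± 0.322 points in B and D and -3.45 ± 0.729 points in A and C, which did not overlap either (SD, n = 4; exact permutation p = 0.0286 and adjusted p = 0.0667 for both). The difference in median width (-24.1 ± 4.87 bp in B and D, -25.9 ± 1.65 bp in A and C; exact permutation p = 0.514) and in the part wider than 1000 bp (-1.47 ± 0.0796 points in B and D, -1.65 ± 0.605 points in A and C; exact permutation p = 0.629) overlapped between the groups. Over C and D against A and B no measure of width or rank had an exact permutation p under 0.114. Those groups mix B or D with A or C, so the tests cannot show that width was equal. In median width on the 2 chromosomes each list of D was below each of B (159 and 159.5 bp, against 164 and 165 bp). Each list of C was below each of A (167 and 163.5 bp, against 170 and 170 bp). On the other autosomes C was below A as well, but D was above B (188 and 187 bp, against 185 and 184 bp). In mean width on the 2 chromosomes C and A overlapped.

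**Figure D3:**
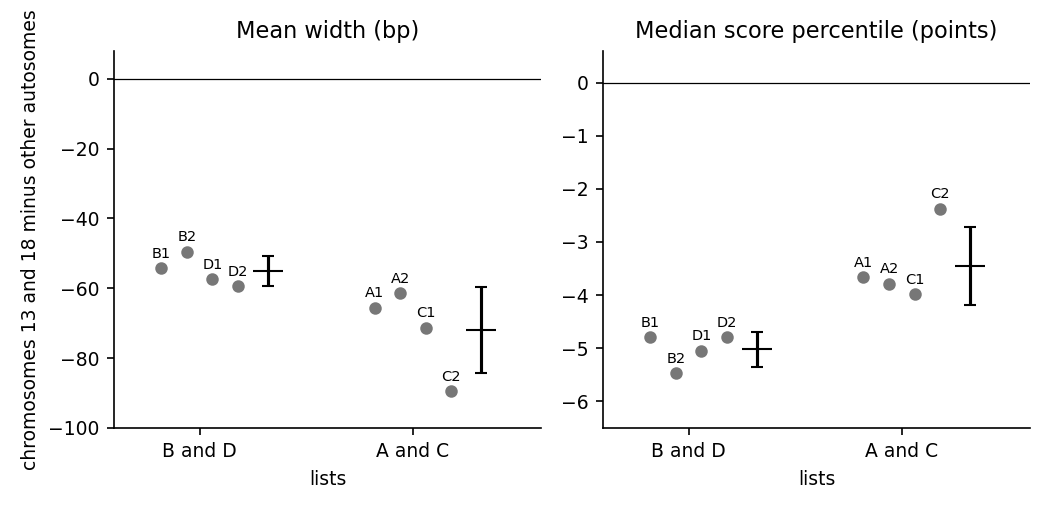
Difference between the peaks on chromosomes 13 and 18 and those on the other autosomes within each list, as mean width in bp (left) and as median score percentile (right), with 1 dot per list and the mean and SD of each group of 4. All 8 lists lie below 0 in both panels, and the lists of B and D lie above those of A and C for width and below them for the percentile.

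The bases covered by peaks differed between the 2 chromosomes as well. Peaks covered 141 and 139 kb of chromosome 13 in B and 138 and 141 kb in D, against 135 and 134 kb in A and 157 and 156 kb in C. On chromosome 18 they covered 103 and 111 kb in B and 103 and 101 kb in D, against 134 and 137 kb in A and 143 and 146 kb in C. On chromosome 18 both fewer peaks and narrower ones went into that sum, with a mean width of 276 ± 9.57 bp in B and D and 318 ± 7.26 bp in A and C (SD, n = 4). The other autosomes also had fewer and narrower peaks there, covering 6418 ± 170 kb in B and D and 8444 ± 744 kb in A and C (SD, n = 4). As a share of the autosomal bases covered, chromosome 18 differed by -0.0390 percentage points (exact permutation p = 0.400, unadjusted). Chromosome 13 differed by 0.428 points (exact permutation p = 0.0286, unadjusted). On chromosome 13 the mean width was 290 ± 5.92 bp in B and D and 316 ± 10.5 bp in A and C, with more peaks in B and D than in A but not than in each list of C.

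Most regions with a single peak in each list kept their bounds when found again. Of the chromosome 13 regions with a single peak in each of the lists set side by side, 81.0% to 83.1% had the same start and end in B and A, and 79.5% to 82.2% in D and C. On chromosome 18 it was 86.2% to 87.7% in B and A and 86.3% to 87.2% in D and C. On the other autosomes it was 84.1% to 84.9% in B and A and 82.1% to 82.9% in D and C. Over chromosomes 13 and 18 together, 6.37% to 7.62% of such regions were narrower in B than in A, and 7.62% to 9.64% were wider. In D against C, 8.59% to 11.2% were narrower and 5.25% to 7.21% wider. For B against A, the lower mean width thus did not go with more narrowed than widened peaks in these regions. How far the choice of regions called accounts for the lower mean width was not tested.

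Presence over the 8 lists was alike on the 2 chromosomes and elsewhere. A peak in all 8 lists was found in 221 regions of chromosome 13 (27.4%) and 208 of chromosome 18 (31.4%), against 29.5% of the regions on other autosomes. A peak in 1 list alone was found in 17.5% of the regions on chromosome 13 and 17.8% of those on chromosome 18, against 17.2% elsewhere. Regions in all 8 lists had a median width of 177 bp on chromosome 13 and 170 bp on chromosome 18, against 208 bp elsewhere, and a median percentile of 59.8 and 65.3, against 66.8 elsewhere. The overlap of regions between the 2 lists of a pair, as a share of the regions in either, averaged 0.718 on chromosome 13 and 0.757 on chromosome 18, against 0.737 on the other autosomes. Between a list of B or D and a list of A or C it averaged 0.523 on chromosome 13 and 0.567 on chromosome 18, against 0.539 on the other autosomes.

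Loss and gain were read from regions. A region was called lost in B against A, for example, where no list of B and both lists of A had a peak, and gained where both lists of B and no list of A did. An exact test of 2 lists against 2 cannot pass 0.05, so the counts stand beside the same share on the other autosomes and carry no p-value.

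In B against A, chromosome 13 gained 96 of the 398 regions that both lists of B held (24.1%), against 16.8% on the other autosomes. It lost 52 of the 360 that both lists of A held (14.4%), against 19.5% on the other autosomes. Its gained share was the highest of the 22 autosomes and its lost share the lowest. Chromosome 18 gained 52 of 323 (16.1%) and lost 78 of 364 (21.4%), each within 2 percentage points of the other autosomes. With only the better-scoring 50% of each list, chromosome 13 gained 55 regions (32.4%, against 21.9% on the other autosomes) and lost 56 (33.7%, against 25.3%), so that its losses were no longer fewer than its gains and no longer below the share elsewhere.

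In D against C, chromosome 13 gained 82 of 403 regions (20.3%), against 13.1% on the other autosomes, again the highest of the 22. It lost 83 of 410 (20.2%), against 25.8%, the lowest but 1. Chromosome 18 gained 30 of 317 (9.46%) and lost 91 of 406 (22.4%). Its share of gains was below that of the other autosomes here, and so was its share of losses. With lists cut to equal length, chromosome 13 gained 114 regions (29.0%, against 18.9% on the other autosomes) and lost 53 (16.3%, against 20.9%), and chromosome 18 gained 46 (14.7%) and lost 64 (19.2%). With the better-scoring 50%, chromosome 13 gained 58 (30.7%, against 17.6%) and lost 55 (29.9%, against 30.6%). These 2 comparisons share no list. The regions gained in both were 51 on chromosome 13, which is 53.1% of those gained in B against A and 62.2% of those gained in D against C. On chromosome 18 there were 15, out of 52 gained in B against A and 30 gained in D against C, and on the other autosomes 36.2% and 47.3%. The regions lost in both were 24 on chromosome 13 (46.2% and 28.9%) and 39 on chromosome 18 (of 78 and of 91), against 53.1% and 35.6% on the other autosomes.

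The pairs that the list names set apart by K512R differed less. In C against A, chromosome 13 gained 36 of 410 regions (8.78%) and lost 12 of 360 (3.33%), against 8.7% and 3.28% on the other autosomes. Chromosome 18 gained 31 of 406 (7.64%) and lost 9 of 364 (2.47%). With lists cut to equal length, chromosome 13 gained 16 and lost 21 in this comparison, which turns the balance, and chromosome 18 gained 17 and lost 11. In D against B, chromosome 13 gained 36 of 403 (8.93%) and lost 37 of 398 (9.30%), against 6.26% and 7.76% elsewhere, and chromosome 18 gained 20 of 317 (6.31%) and lost 30 of 323 (9.29%). No region of either chromosome was gained in both of these comparisons, and 1 was lost in both, chr18:46644915-46645296 on the minus strand, with score percentiles from 17.04 to 34.4 in the lists that held it. Such regions were rare elsewhere too. On the other autosomes, 1.12% of those gained in C against A and 1.91% of those gained in D against B were gained in both. For lost regions it was 3.01% and 1.35%.

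**Figure D4:**
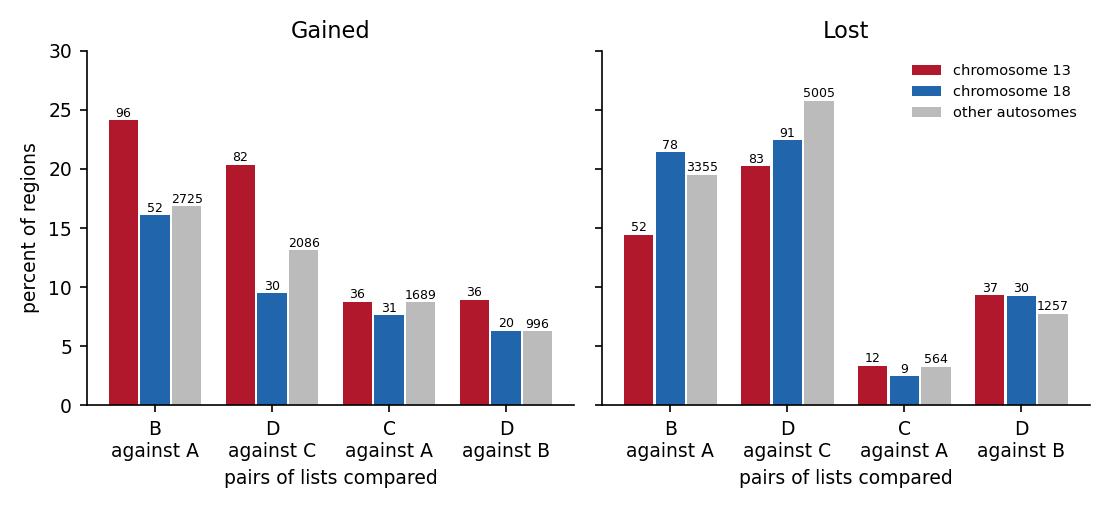
Percent of regions gained (left, of those in both lists of the first-named pair) and lost (right, of those in both lists of the other pair) in 4 comparisons of pairs, on chromosome 13, chromosome 18 and the other autosomes; the number on top of each bar counts the regions. Chromosome 13 has the tallest gained bars in B against A (24.1%) and D against C (20.3%), and chromosome 18 has the shortest in D against C (9.46%).

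Over all 8 lists, a peak in each list of B and D and in none of A and C was found for 51 of the 321 regions of chromosome 13 in all 4 lists of B and D (15.9%) and 15 of 259 on chromosome 18 (5.79%), against 7.45% on the other autosomes. The reverse was found for 24 of the 322 regions of chromosome 13 in all 4 lists of A and C (7.45%) and 39 of 330 on chromosome 18 (11.8%), against 11.6% on the other autosomes. Regions in all of C and D and none of A and B numbered 0 on both chromosomes, where the other autosomes had 0.156%. Regions in all of A and B and none of C and D numbered 0 on chromosome 13 and 1 on chromosome 18, where the other autosomes had 0.144%.

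Among the regions in B and D alone, chr13:31037668-31038384 on the minus strand scored best. Its 717 bp had the same bounds in each list and percentiles of 94.8 and 95.3 in B and 94.7 and 94.3 in D, with no peak in A or C. The region chr18:3255744-3256235 on the plus strand, 492 bp wide, had the same percentiles, since all 8 of these peaks sit at the tied score of 3100. On the plus strand of chromosome 13, chr13:21721325-21723224 had percentiles of 94.8 and 88.5 in B and 84.8 and 99.7 in D, with widths of 1651 and 1758 bp in B and 1900 and 1439 bp in D. These are called strongly in 4 lists and not at all in the other 4. Others were weaker, such as chr18:54283476-54283545 on the minus strand, 70 bp wide, with percentiles of 48.5 to 52.9 in B and D.

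Among the regions in A and C alone, 2 wide ones led. The region chr18:56585503-56587865 on the plus strand had no peak in B or D, and in A and C it was called with the same 2363 bp each time, at percentiles of 73.1 and 77.6 in A and 85.8 and 87.5 in C. The region chr13:80910111-80911891 on the minus strand had no peak in B or D, and percentiles of 67.6 and 68.7 in A and 84.4 and 84.9 in C. Both stood higher in the lists of C than in those of A.

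A few regions singled out 1 pair. The region chr18:12947132-12947625 on the plus strand was in A alone, at percentiles of 84.4 and 84.0. The region chr18:21086934-21087018 on the plus strand was missing in C alone, with percentiles of 83.7 and 84.0 in B, 84.0 and 82.2 in D, and 79.8 and 79.1 in A. The region chr18:11908200-11908796 on the minus strand was missing in D alone, with percentiles of 81.2 and 83.0 in B, 89.0 and 94.8 in A, and 79.3 and 86.9 in C. The region chr13:103419623-103419828 on the minus strand was missing in D alone as well, at 78.4 to 79.2 in B, 73.7 to 77.5 in A and 72.9 to 73.2 in C.

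Wide regions made up more of the lost than of the gained ones. Of the 130 regions lost in B against A on the 2 chromosomes, 12 were over 1000 bp (9.23%), and of the 148 gained, 2 were (1.35%). In D against C, 16 of 174 lost (9.20%) and 4 of 112 gained (3.57%) were that wide. On the other autosomes 12.4% of lost and 6.31% of gained regions were over 1000 bp in B against A, and 13.4% and 5.85% in D against C. Changed regions ranked lower than stable ones, here as elsewhere. The median percentile was 32.4 for lost and 32.1 for gained regions in B against A, and 58.3 for those in all 4 lists. Other autosomes had 29.7 for lost regions, 35.8 for gained ones and 62.4 for those in all 4 lists.

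The widest regions were not the most widely shared. The widest, chr18:60790579-60795992 on the minus strand, is 5414 bp long and was called in 1 list of A alone, at the tied score of 3100. The next, chr18:670324-674406 on the minus strand, spans 4083 bp and had a peak in 7 lists, with widths of 1582 and 3478 bp in B, 1487 and 1487 bp in D, 1658 bp in the list of A that held it, and 1829 and 4083 bp in C. Its percentile was 94.3 to 95.3 in B and D, against 84.2 in A and 73.8 and 16.5 in C. The widest on chromosome 13, chr13:45907659-45911688 on the minus strand, is 4030 bp long and had no peak in B or D, while each list of A and 1 list of C held it. By contrast chr18:34374069-34377013 on the minus strand was in all 8 lists, with a width of 2945 bp in 7 of them and 1044 bp in 1 list of D.

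The place of the changes along the chromosomes was looked at in windows of 10 Mb, chosen after the data were seen. On the other autosomes each list of B and D had more regions than any of A and C in 8.86% of windows, and fewer in 33.9%. Of the 10 windows of chromosome 13, 3 were higher and 2 lower in this way, and of the 8 windows of chromosome 18 none were higher and 4 lower. On chromosome 13 the window from 40 to 50 Mb had 100 and 91 regions with a peak in B and 90 and 93 in D, against 55 and 58 in A and 76 and 76 in C. It gained 33 regions for B against A, and 22 for D against C. The window from 30 to 40 Mb was higher in B and D too, with means of 54.75 in B and D and 46.5 in A and C. Towards the end of the long arm the order was the other way. From 110 Mb on, chromosome 13 had 58 and 64 regions with a peak in B and 69 and 67 in D, against 77 and 75 in A and 80 and 94 in C. The window from 90 to 100 Mb had means of 58.75 in B and D and 72.5 in A and C. In these 4 windows the groups did not overlap. The remaining such window, from 60 to 70 Mb, held few regions, with means of 6.0 in B and D and 1.5 in A and C.

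On chromosome 18 the mean of B and D was below that of A and C in each of the 8 windows. The lists of B and D are shorter, and the other autosomes had fewer peaks there too, with means of 18923 in B and D and 21675 in A and C. The part of their windows with a lower mean is not given here, so this is not shown to be particular to chromosome 18. The last window of chromosome 18, from 70 Mb on, had 20 and 26 regions with a peak in B and 20 and 21 in D, against 33 and 30 in A and 33 and 35 in C. It lost 9 regions and gained 2 in B against A, and lost 10 and gained 2 in D against C. Without the regions beyond 70 Mb the share of chromosome 18 was 0.0022 percentage points higher in B and D than in A and C, a turned sign (exact permutation p = 0.943). The share of chromosome 13 without regions beyond 110 Mb was 0.428 points higher (exact permutation p = 0.0286, unadjusted).

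Regions of a strand with gaps of up to 20 kb were grouped into loci, 305 on chromosome 13 and 254 on chromosome 18. Of the loci, 52.5% on chromosome 13 and 48.0% on chromosome 18 held 1 region, against 45.3% elsewhere. A locus had more regions with a peak in each list of B and D than in any of A and C in 35 cases on chromosome 13 (11.5%) and 9 on chromosome 18 (3.54%), against 5.79% of the loci on other autosomes. It had fewer in 19 cases on chromosome 13 (6.23%) and 28 on chromosome 18 (11.02%), against 9.45%. Changes within a locus mostly went 1 way. Of 32 loci on chromosome 13 with at least 2 changed regions in B against A, 22 had gains alone, 8 had losses alone and 2 had both. On chromosome 18, 11 had gains alone, 14 losses alone and 2 both, and on the other autosomes 88.5% went 1 way. Neighbouring peaks may lie on 1 transcript and are not independent.

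The locus that gained most of either chromosome for B against A was chr13:45517577-45563613 on the minus strand, with 9 regions, of which 8 were gained, against 4 for D against C. It had a peak in 9 and 9 of them in B and 6 and 6 in D, against 1 and 0 in A and 0 and 1 in C. The next on chromosome 13 for B against A, chr13:47345391-47371367 on the minus strand, had 11 regions, of which 10 and 10 had a peak in B and 9 and 9 in D, against 4 and 4 in A and 4 and 5 in C. Both lie in the window from 40 to 50 Mb. The locus chr13:53226831-53254290 on the plus strand had a peak in 6 and 6 of its 7 regions in B and 6 and 7 in D, against 2 and 2 in A and 2 and 3 in C. The locus chr13:36742345-36788752 on the minus strand, which gained most for D against C with 5 of its 8 regions, had 5 and 8 in B and 6 and 7 in D, against 3 and 2 in A and 1 and 1 in C. The locus chr13:34392206-34411644 on the plus strand, picked after its values were seen, had 5 and 4 of its 7 regions in B and 4 and 4 in D, and none in A or C. In each of these loci the groups did not overlap. All were chosen by their gains or values in these same lists, so this is partly built into the choice.

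Leaving out the 5 loci of chromosome 13 with most gains, which held 41 of its 178 gains in the 2 comparisons, left its share at 2.26% ± 0.0861 in B and D and 1.99% ± 0.0443 in A and C (SD, n = 4; exact permutation p = 0.0286, unadjusted). The difference was then 0.269 percentage points, in place of 0.395 with all loci. On chromosome 13 gains lay in 57 of its 305 loci for B against A and in 48 for D against C. On the other autosomes they lay in 1774 and 1523 of 12107 loci.

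Chromosome 13 also had loci with fewer peaks in B and D. The locus chr13:96238260-96296960 on the minus strand, with 14 regions, had 9 and 8 in B and 7 and 8 in D, against 14 and 14 in A and 13 and 14 in C. The locus chr13:114526348-114567076 on the minus strand, with 8 regions, had 1 and 2 in B and 2 and 4 in D, against 8 and 6 in A and 6 and 8 in C. The nearby chr13:114748413-114817630, also on the minus strand, had 2 and 2 of its 16 regions in B and 3 and 2 in D, against 5 and 5 in A and 7 and 15 in C, so 1 list of C stands apart there.

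On chromosome 18 the locus that lost most in B against A was chr18:12463350-12512530 on the minus strand. It had a peak in 0 and 0 of its 7 regions in B and 1 and 1 in D, against 7 and 6 in A and 6 and 6 in C. The locus chr18:20814572-20838956 on the plus strand, with 6 regions, had 0 and 0 in B and 0 and 1 in D, against 4 and 5 in A and 6 and 6 in C. The locus chr18:9546789-9593872 on the minus strand, with 10 regions, had 3 and 2 in B and 4 and 4 in D, against 9 and 8 in A and 9 and 9 in C. The locus chr18:2923773-2960847 on the minus strand had none of its 7 regions in B or D, against 3 and 2 in A and 4 and 7 in C. In each of these 4 loci the groups did not overlap, which is partly built into their choice by losses in these same lists.

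Single loci of chromosome 18 gained peaks. The locus chr18:54270053-54318792 on the minus strand, the second of both chromosomes by gains for B against A with 6, had a peak in 8 and 8 of its 9 regions in B and 8 and 6 in D, against 2 and 3 in A and 3 and 4 in C. The locus chr18:61442609-61468246 on the plus strand had 7 and 6 of 7 regions in B and 4 and 5 in D, against 2 and 2 in A and 2 and 0 in C. The locus chr18:2589203-2616634 on the plus strand had 3 and 5 of 6 regions in B and 3 and 4 in D, and none in A or C. In each of these 3 loci the groups did not overlap either, but they were chosen by gains in these same lists, which partly builds that in. The locus chr18:23612363-23637706 on the minus strand also gained 4 regions in B against A, and its groups overlapped. It had 4 and 5 of its 5 regions in B and 2 and 2 in D, against 0 and 0 in A and 1 and 2 in C.

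Other loci with many regions differed less. The locus chr18:47309873-47376216 on the minus strand, the largest on either chromosome with 18 regions, had 15 and 14 in B and 13 and 15 in D, against 16 and 14 in A and 15 and 17 in C. The locus chr13:99017649-99102027 on the plus strand, with 16 regions, had 12 and 14 in B and 12 and 14 in D, against 15 in each list of A and C, so that the groups differed by 1 to 3 regions and did not overlap. The locus chr13:50265390-50321129 on the minus strand, picked after its values were seen, had 9 regions with a peak in all 8 lists.

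**Figure D5:**
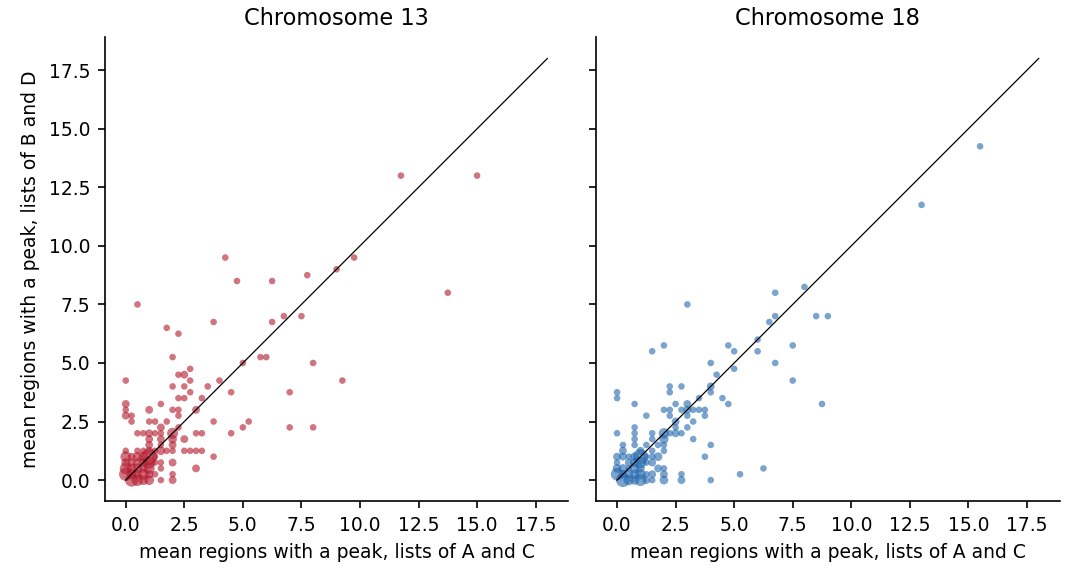
Each dot stands for loci of chromosome 13 (left) or chromosome 18 (right), with the mean number of regions with a peak in the 4 lists of A and C across and in the 4 lists of B and D upward; larger dots stand for more loci with the same values, and the line marks equal numbers. On chromosome 13, 35 loci have more in each list of B and D than in any of A and C and 19 have fewer, and on chromosome 18 the numbers are 9 and 28.

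Over the K512R contrast of the list names, 10 loci of the 2 chromosomes had at least 2 changed regions in C against A and 13 did in D against B. There were 59 such loci for B against A, and 66 for D against C, out of 559 loci. Of the 12107 loci on the other autosomes, 314 did in C against A and 299 in D against B. There too B against A and D against C had more, with 1213 and 1404. The locus chr13:50115012-50159719 on the minus strand gained most on chromosome 13 in C against A, with 8 and 7 of its 9 regions in C, against 3 and 3 in A. It had 3 and 3 in D, against 2 and 2 in B, so the 2 comparisons of that contrast did not show the same size. The locus chr18:59805476-59830889 on the minus strand had 6 and 7 of its 9 regions in C, against 3 and 3 in A, and 6 and 7 in D, against 5 and 5 in B.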

How the data were processed

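The data are BED lists of peaks, 1 for each of 8 samples, in which the authors gave every peak its place, strand and score. Per the submitters' processing notes, cutadapt 1.9.3, HISAT2 2.0.4 and the build hg19 were used. The peak names begin with MACS, and the sources used here do not give its version, control or threshold. The deposited score ran from 13.02 to 3233.06 without a stated unit and served only for ranks within a list, ties sharing a mean rank.

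Regions join peaks of all 8 lists on a strand that overlap by at least 1 bp. Each measure gave 1 value per list, and groups of 4 were tested by 2-sided exact permutation over all 70 orders, and differences from the other autosomes by permuting signs over 256 orders, with Benjamini-Hochberg adjustment over 28 tests. The rules for regions and tests were tested on simulated data. Named regions are the 3 lost and 3 gained with the best poorer percentile per chromosome and comparison, the 5 best in all lists of 1 side and none of the other, and the 4 widest. Named loci are the 6 with most regions and the 3 with most lost or gained per comparison; exceptions are marked. The chromosomes, tests and lists were chosen with earlier results of these data known. Alternatives were list length, score, denominator, covered length, joining rules, left-out replicates, locus gap and the replicate block. The replicate numbers did not pair the lists: correlations of deviations between same-numbered lists were -0.015 to 0.076. Gene density uses GRCh38.p14 gene counts. Scripts ran in Python 3.11.15 with pandas 2.3.3, numpy 2.4.6, scipy 1.17.1 and, for the plots, matplotlib 3.10.9.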

Additional observations from a re-analysis of the deposited data

Results flagged for a closer look

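The change in score rank on chromosome 13 went opposite ways in comparisons that share the same contrast, with each list of 1 pair on 1 side of each list of the other in both; the difference between the comparisons was not tested. The median percentile changed by -2.26 points for B minus A and by 0.541 points for D minus C. The same values set the other way changed by -1.20 points for C minus A and by 1.597 points for D minus B.

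The share of peaks with a score of 3100 or more also went opposite ways over the K512R contrast of the list names, and that difference was not tested either. On chromosome 13 it changed by -1.03 percentage points for C minus A and by 1.40 points for D minus B. On chromosome 18 it changed by -0.959 points for C minus A and by 1.82 points for D minus B. These shares rest on 18 to 36 peaks per list.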

How the results depend on the processing

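All shares below are in percentage points and all tests are exact permutations, unadjusted. Over the tested measures, 160 results under the alternatives kept their direction and side of 0.05, 8 lost p below 0.05, 5 gained it and 17 turned. Permuting within replicate number (replicate block) leaves 36 orders, whose smallest p is 0.0556, so no result could pass: for B and D against A and C the differences stay 0.359 for the share on both chromosomes, 0.395 on chromosome 13, -33.1 bp for mean width, -1.91 for wide peaks and -1.51 points for the percentile. With lists of equal length, the chromosome 18 share gave -0.0475 and the median width -8.12 bp (exact p = 0.0286 each), and the percentile -0.844 (exact p = 0.171). With the better-scoring peaks of each list (the upper 50% by score), the share on both chromosomes gave 0.124 (exact p = 0.171), chromosome 18 -0.141 (exact p = 0.0286) and the percentile -1.04 (exact p = 0.200). Without regions beyond 70 Mb the chromosome 18 share turned to 0.0022, and against chromosomes 4, 8 and 21 it was -1.06 (exact p = 0.0286). Without the first list of D, it was -0.0493 (exact p = 0.0286). The chromosome 13 difference ran from 0.265 to 0.429 over the alternatives with the same denominator. The causes were not tested.

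For C and D against A and B, no result passed 0.05 and signs turned: wide peaks to 0.0556 at equal length and 0.263 among the better-scoring peaks, the percentile to -0.459 among the better-scoring peaks, covered length to -0.0490 for both chromosomes and -0.0804 for chromosome 18, and the chromosome 18 share to -0.289 against chromosomes 4, 8 and 21. Leaving out 1 list at a time gave ranges of -0.0083 to 0.158 for both chromosomes, -0.0042 to 0.159 for chromosome 13, -0.0134 to 0.0157 for chromosome 18, -0.674 to 0.114 for wide peaks and -0.120 to 0.757 for the percentile. For B and D against A and C those ranges were 0.317 to 0.391 for both chromosomes, 0.366 to 0.429 for chromosome 13, -0.0493 to -0.0254 for chromosome 18, -35.9 to -30.4 bp for mean width, -7.12 to -4.79 bp for median width, -2.01 to -1.81 for wide peaks and -1.66 to -1.14 for the percentile.

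Counts of regions moved by over 1.5 times in 49 cases and by less in 47. At equal list length, D against C had 53 lost and 114 gained on chromosome 13 and 46 gained on chromosome 18, and C against A had 21 lost and 16 gained on chromosome 13 and 17 gained on chromosome 18. Among the better-scoring peaks, B against A had 56 lost and 55 gained on chromosome 13 and 46 lost and 26 gained on chromosome 18, D against C had 55 lost on chromosome 13 and 17 gained on chromosome 18, C against A had 5 lost and 16 gained on chromosome 13 and 4 lost and 18 gained on chromosome 18, and D against B had 8 lost and 13 gained on chromosome 13 and 14 lost on chromosome 18. With 1 list per pair instead of 2, each count was higher. B against A then had 112 to 121 lost and 160 to 164 gained on chromosome 13, and 124 to 146 lost and 94 to 98 gained on chromosome 18. D against C had 148 to 167 lost and 151 to 157 gained on chromosome 13, and 151 to 158 lost and 69 to 72 gained on chromosome 18. C against A had 37 to 66 lost and 108 to 121 gained on chromosome 13, and 36 to 55 lost and 90 to 91 gained on chromosome 18. D against B had 90 to 107 lost and 110 to 115 gained on chromosome 13, and 68 to 81 lost and 72 to 77 gained on chromosome 18. With a gap of 5 kb, loci numbered 505 on chromosome 13 and 449 on chromosome 18. Depth is unknown, so a missing peak may lie below the caller's threshold.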
